A study of Mus musculus with 12 samples.

Results

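The clustered histone genes are the multicopy genes that encode the linker histone H1 and the core histones H2A, H2B, H3 and H4. They were taken as every row of the deposited expression table whose mapped mouse symbol began with Hist1h, Hist2h, Hist3h or Hist4h, the older names of these genes, which gave 61 of 24432 genes. Of these, 6 encode H1, 17 encode H2A, 15 encode H2B, 11 encode H3 and 12 encode H4. In the GENCODE M21 annotation (GRCm38), 50 lie on chromosome 13 (the Hist1 cluster), 7 on chromosome 3 (Hist2), 3 on chromosome 11 (Hist3) and 1 on chromosome 6 (Hist4). Among them 59 are annotated as protein-coding, and Hist1h2al and Hist3h2bb-ps are annotated as processed pseudogenes.

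Bulk RNA of 12 mouse libraries was sequenced, 3 in each of 4 groups. Slc34a1CreERT2;Lats1/2flox/flox mice gave the primary kidney tumors and the lung metastases; in these mice a tamoxifen-activated Cre driven from Slc34a1, a gene of the kidney's proximal tubule, removes the Hippo pathway kinases Lats1 and Lats2. These mice received 3 tamoxifen injections at 1 month of age, and tissue was dissected 4 months later. Allograft tumors were dissected 6 weeks after Lats1-/-;Lats2-/- cells had been placed under the kidney capsule of NOD/SCID hosts aged 6-8 weeks, which lack mature T and B cells. Proximal tubule cells were sorted by FACS from adult Slc34a1CreERT2;Lats1c/c;Lats2c/+;RosaTomato mice, so they too carried Cre and conditional Lats alleles. Their table columns call them wild type; no source used here states the recombination of their alleles. Nothing in the labels says that the replicates of a group came from separate animals, so each p-value reflects the spread among these libraries alone, and that spread may be technical.

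Clustered histone genes are transcribed mainly in S phase, when newly copied DNA has to be packed into nucleosomes, and most of them have no introns. Their mRNAs usually end not in a poly(A) tail but in a short stem-loop, which is bound by the stem-loop binding protein (Slbp) and is cut downstream by a complex that contains the U7 snRNP. In cells that have left the cell cycle most of these mRNAs are scarce, and replacement histones, whose mRNAs are mostly polyadenylated and made outside S phase as well, maintain the chromatin. A few clustered genes can also end in a poly(A) tail.

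The stem-loop is shown because it is the feature that sets these mRNAs apart from almost all others and decides whether a library made from poly(A) RNA would capture them. A 16-base form, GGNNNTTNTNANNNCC, was searched for on the mRNA strand after the stop codon of each annotated transcript. It was found in 40 of the 45 genes with at least 30 nt annotated after the stop codon. The 16 bases are in capitals, with 5 bases on each side.
Hist1h1c: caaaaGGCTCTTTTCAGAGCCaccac
Hist1h2ao: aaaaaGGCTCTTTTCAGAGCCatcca
Hist1h2bf: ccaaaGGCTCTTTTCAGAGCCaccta
Hist1h3b: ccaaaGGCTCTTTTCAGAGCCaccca
Hist1h3e: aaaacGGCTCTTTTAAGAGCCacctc
Hist1h4d: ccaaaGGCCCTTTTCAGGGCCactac
Hist4h4: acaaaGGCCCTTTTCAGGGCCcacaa
The form shared by Hist1h1c, Hist1h2ao, Hist1h2bf and Hist1h3b was found in 21 genes of every class except H4, the form of Hist1h4d and Hist4h4 in 6 genes, and that of Hist1h3e in 6 genes. The 5 genes with an annotated 3′ end but no such sequence were Hist1h1a, Hist1h2bc, Hist1h2br, Hist2h2be and Hist2h3b. The other 16 genes had fewer than 30 nt annotated after the stop codon, so these letters could not be looked for.

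Levels are in FPKM, fragments scaled to transcript length and library size, and changes are differences of log2(FPKM + 1) ± SE with 3 libraries on each side. This scale understates the change of genes with few fragments. A gene is said to rise or fall where limma's test passed an adjusted p of 0.05 over all 16313 genes tested. Depth, estimated from the steps between low values with annotated lengths reduced by 250 nt, was 12.98 to 20.8 M (mega) fragments in the tumor libraries, where 72.2% to 75.7% of low values lay within 3% of a whole fragment. On these steps 1 fragment of a 400-nt gene was worth 0.320 to 0.514 FPKM in tumors, and short transcripts received high FPKM. In the proximal tubule libraries only 32.7% to 38.1% of low values lay on such steps, so their estimates of 5.33 to 7.08 M fragments are uncertain, and these columns may have been made with other lengths or another tool. The median transcript of the histone genes was 528 nt, and 35 of the 61 genes shared their sequence so far with other genes that under 50% of their 31-base words were unique, so the division of fragments between near-identical genes is an estimate. Lats1 stood at 5.60 to 14.7 FPKM and Lats2 at 10.5 to 22.5 FPKM over the 12 libraries; gene-level values do not resolve the deleted exons and so do not check the genotype.

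Markers of other cells differed between the groups. The summed FPKM of 5 proximal tubule markers was 2346, 2527 and 2759.8 in proximal tubule cells 1 to 3 and 65.7, 1896 and 425 in primary tumors 1 to 3. The metastases had 31.3 to 40.7 and the allograft tumors 10.1 to 29.2. The summed FPKM of 5 macrophage markers was 5.01 to 6.56 in the sorted cells, 1091, 152 and 185 in primary tumors 1 to 3, 689 to 997 in lung metastases and 822 to 2961 in allografts. The 3 lung epithelial markers summed to 11058 to 17861 FPKM in the metastases and to at most 6.65 elsewhere. Fibroblast markers (4 genes) summed to 0.948 to 1.80 FPKM in sorted cells and 109 to 1832 in tumors, erythroid markers (3) to 31.2 to 45.9 and 206 to 4690.5, and endothelial markers (3) to 19.0 to 29.97 and 30.4 to 271. B cell markers (4) summed to 0 to 0.385 and 6.84 to 308 FPKM, and T cell markers (4) to 0.648 to 1.08 and 6.38 to 22.11. The part of these mixtures in the histone levels was not tested, and in bulk RNA a smaller number of cells of a type and less RNA per cell cannot be told apart.

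In FPKM the histone genes were low in sorted proximal tubule cells and high in the tumors, in the order primary tumors, metastases, allograft tumors. Their summed FPKM was 1695, 1529 and 1557 in proximal tubule cells 1 to 3, 13461, 4077 and 2916 in primary tumors 1 to 3, 16952, 19858 and 18092 in lung metastases and 54337, 27544 and 41644 in allografts. On this scale no tumor library overlapped the proximal tubule cells, and no allograft tumor overlapped a metastasis. Primary tumor 1 lay close to the metastases, whereas primary tumors 2 and 3 lay nearer to the sorted cells. The mean sums were 4.28, 11.5 and 25.8 times that of proximal tubule cells in primary tumors, metastases and allograft tumors. Over the libraries left out, the primary tumor ratio ran from 2.19 to 5.50. The FPKM of all genes summed to 706093 to 738052 in sorted cells and 1352265 to 2527747 in tumors. After rescaling each library to TPM, which sets all libraries to the same total, these ratios were 2.01, 5.49 and 9.25. In TPM primary tumor 1 lay above the sorted cells, but primary tumors 2 and 3 lay within their range.

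**Figure D1:**
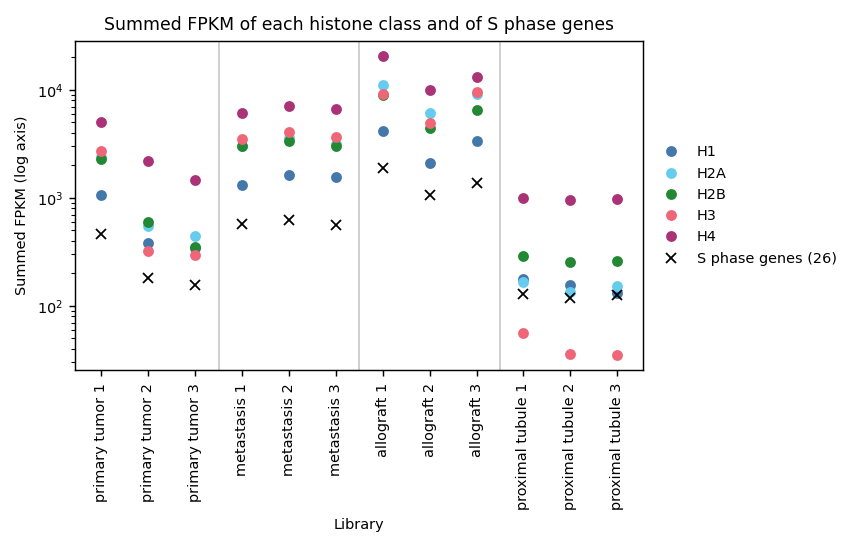
Summed FPKM (log axis) of each histone class, as coloured circles, and of 26 S phase genes, as crosses, in each of the 12 libraries. In every class primary tumor 1 lies beside the metastases and the allograft tumors lie highest; H3, at 34.8 to 56.6 FPKM, is the lowest class in the proximal tubule cells.

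The sums of the histone genes in FPKM moved with those of 26 S phase genes. These 26 genes include DNA replication factors, cyclins, Cdk2, E2f1, Mki67 and Top2a. These summed to 130.1, 118 and 126 FPKM in proximal tubule cells 1 to 3, 467, 183 and 155 in primary tumors 1 to 3, 571, 625 and 567 in lung metastases and 1880.0, 1070.5 and 1379 in allografts. Primary tumor 1 again stood above primary tumors 2 and 3. After rescaling to TPM, the S phase sum of primary tumor 1 lay above the sorted cells. Those of primary tumors 2 and 3 lay below all sorted cells. For each FPKM of S phase genes the libraries held 13.03, 12.9 and 12.3 FPKM of histone genes in proximal tubule cells, 28.8, 22.3 and 18.8 in primary tumors, 29.7, 31.8 and 31.9 in metastases and 28.9, 25.7 and 30.2 in allograft tumors. This ratio was lower in the proximal tubule cells than in any tumor library. It overlapped between metastases and allograft tumors, although the sums of both gene groups were higher in the allografts. Other gene lengths or another tool in the proximal tubule columns could change the ratio there, and this was not tested.

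**Figure D2:**
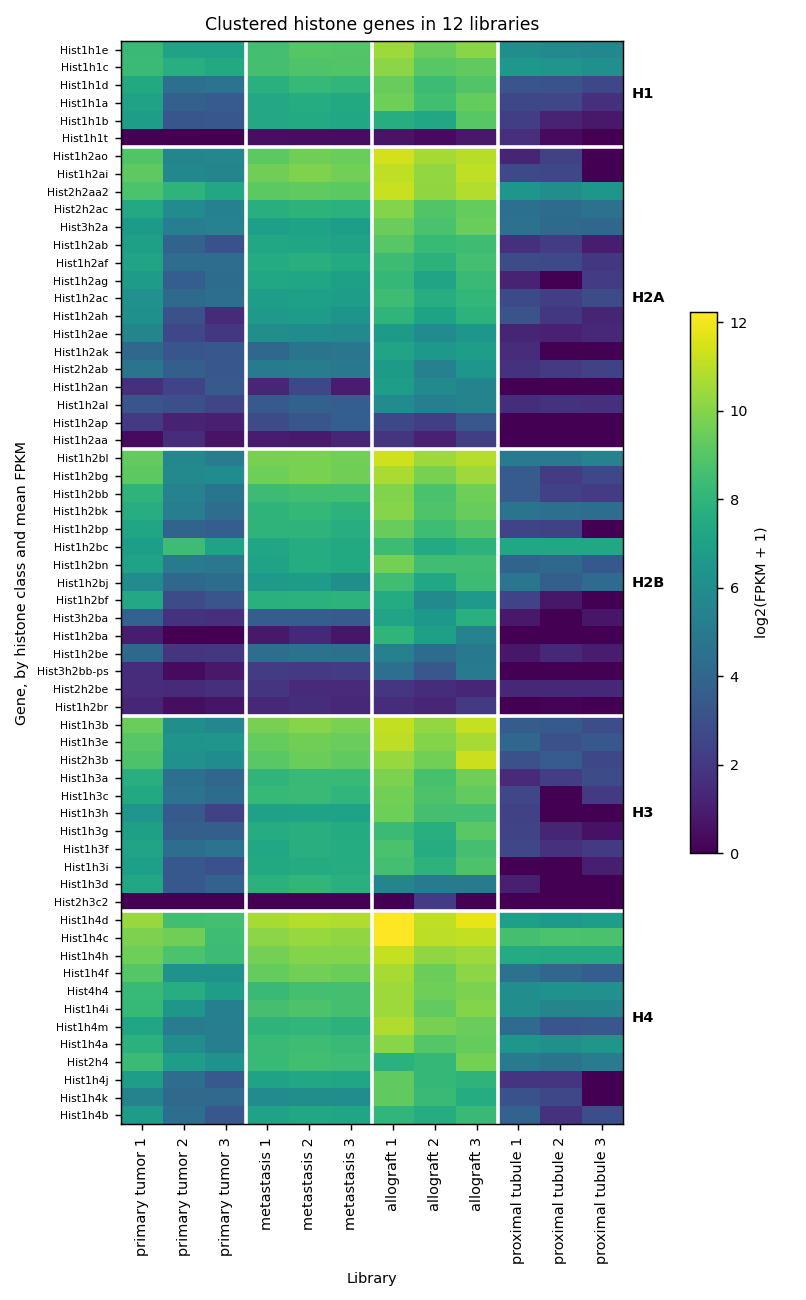
Level of each of the 61 genes (rows, grouped by class and ordered by mean FPKM) in each of the 12 libraries (columns), coloured by log2(FPKM + 1). Most rows are dark in the proximal tubule cells, intermediate in primary tumors 2 and 3 and bright in the other tumors; Hist2h2be is dark in every library, and Hist1h2bc is brightest in primary tumor 2.

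Compared with proximal tubule cells, 47 of the 59 genes past the filter on low values rose in primary tumors, where 48.2% of all genes tested were called higher. In metastases 56 of 59 rose, against 54.0% of all genes, and in allograft tumors 57 of 59 rose, against 52.2%. None fell in these 3 comparisons, which share the proximal tubule libraries, where 4.90%, 14.4% and 16.9% of all genes were called lower. The median changes of the 59 genes were 2.29, 4.23 and 5.56, beside 0.59, 0.68 and 0.66 for all genes. Without the 5 tested genes listed at 0 in every proximal tubule library (Hist1h2aa, Hist1h2an, Hist1h2ap, Hist1h2ba and Hist3h2bb-ps), for which no fold can be given, the medians of the other 54 were 2.34, 4.41 and 5.65. The shift of all genes above 0 depended on scaling: rescaling to TPM moved their medians to -0.29, -0.18 and -0.37, and the numbers of all genes called higher and lower from 7861 and 800, 8803 and 2355, and 8521 and 2755 to 3028 and 5407, 4511 and 5817, and 3503 and 6908. On that scale the medians of the histone genes were 1.28, 3.34 and 4.32, and 30, 54 and 57 genes were called higher, with Hist1h2bc and Hist2h2be called lower in all 3 comparisons. For comparison, 154 short genes outside the histone clusters, with 1 transcript of 300 to 600 nt, had median changes of 1.24, 1.19 and 1.03, and the part of gene length in the histone values was not tested.

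**Figure D3:**
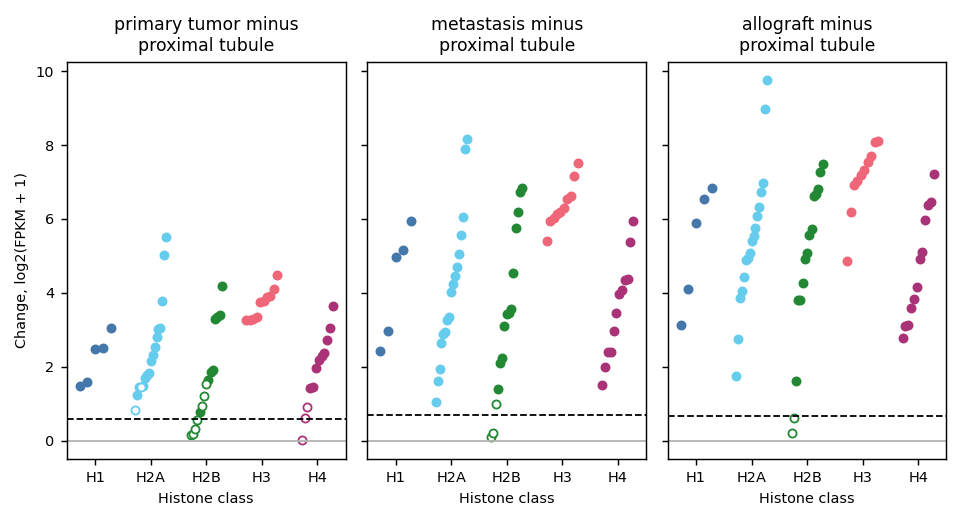
Change of each tested histone gene from proximal tubule cells, in log2(FPKM + 1), by histone class in primary tumors, metastases and allograft tumors; filled circles passed the test, open circles did not, and the dashed line is the median of all genes. All 10 tested H3 genes lie above 3 in every panel, and the open circles of Hist1h2bc and Hist2h2be lie below 1 in all 3.

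Linker histones bind where DNA enters and leaves the nucleosome. All 5 tested H1 genes rose in primary tumors, metastases and allograft tumors, beside 48.2%, 54.0% and 52.2% of all genes. Hist1h1c (H1.2), at chr13:23738808-23740367 on the plus strand, and Hist1h1e (H1.4) were the most abundant. Hist1h1c stood at 90.9, 83.6 and 70.6 FPKM in proximal tubule cells, 327, 207 and 173 in primary tumors, 391, 459 and 478 in metastases and 1119, 536 and 613 in allograft tumors, with no overlap between the sorted cells and any tumor. Its changes from proximal tubule cells, 1.47 ± 0.31, 2.43 ± 0.31 and 3.12 ± 0.31, were smaller than the class medians of 2.48, 4.98 and 5.90 (limma, adjusted p = 0.00272, adjusted p = 6.88e-05 and adjusted p = 1.44e-05). Hist1h1e stood at 65.95, 57.9 and 51.4 FPKM in the sorted cells and 1401, 684 and 1077 in allograft tumors, a change of 4.10 ± 0.36 (limma, adjusted p = 8.85e-06). Between the same 2 groups Hist1h1a (H1.1) went from 5.39, 5.03 and 2.11 to 735, 375 and 642 FPKM, a change of 6.83 ± 0.76 (limma, adjusted p = 2.80e-05).

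H2A pairs with H2B in the dimers that flank the central H3-H4 tetramer. Of 17 H2A genes, 15 rose in primary tumors and all 17 in metastases and allograft tumors, beside 48.2%, 54.0% and 52.2% of all genes. The class medians were 2.14, 4.01 and 5.41. Hist1h2ao, at chr13:21810465-21810944 on the plus strand, and Hist1h2ai showed the largest changes from proximal tubule cells of all histone genes. Hist1h2ao stood at 1.39, 4.09 and 0 FPKM in proximal tubule cells, 475, 47.1 and 49.4 in primary tumors, 559.7, 763 and 686 in metastases and 2697, 1526 and 1968 in allograft tumors. The 4 groups did not overlap, and primary tumor 1 lay near the metastases. The changes from proximal tubule cells were 5.51 ± 0.82, 8.18 ± 0.82 and 9.77 ± 0.82 (limma, adjusted p = 4.00e-04, adjusted p = 1.76e-05 and adjusted p = 7.18e-06). Hist1h2ai went from 5.60, 5.29 and 0 FPKM in sorted cells to 2139, 1209 and 2113 in allograft tumors. Only 6.22% and 7.99% of the 31-base words of Hist1h2ao and Hist1h2ai were unique, so their single values rest on how Salmon shared fragments. Hist2h2aa2, which had no unique 31-base word, was the H2A gene with the highest level in sorted cells, at 84.0, 65.3 and 89.0 FPKM.

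H2B was the class with the lowest share of called genes against proximal tubule cells. Of 15, 8 rose in primary tumors, 12 in metastases and 13 in allograft tumors, beside 48.2%, 54.0% and 52.2% of all genes, with medians of 1.54, 3.43 and 5.07. Hist1h2bl and Hist1h2bg were the most abundant. Hist1h2bg stood at 10.5, 3.58 and 5.13 FPKM in proximal tubule cells, 576, 52.8 and 61.8 in primary tumors, 733, 877 and 770.0 in metastases and 1642, 842 and 1369.5 in allograft tumors, with changes of 4.18 ± 0.76, 6.85 ± 0.76 and 7.49 ± 0.76 (limma, adjusted p = 0.00124, adjusted p = 3.19e-05 and adjusted p = 1.68e-05). Hist1h2bl stood at 30.6, 33.6 and 41.5 FPKM in sorted cells and 626, 50.4 and 34.2 in primary tumors, where primary tumor 3 overlapped the sorted cells and the change of 1.54 ± 0.84 did not pass the test (limma, adjusted p = 0.144). It reached 2607, 1414 and 1892 FPKM in allograft tumors.

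Hist1h2bc and Hist2h2be did not follow the other histone genes. Both encode H2B, have annotated 3′ ends of 742 and 2192 nt after the stop codon, and lack the stem-loop letters there; the Hist1h2bc transcript spans chr13:23684199-23692908 in 2 exons. Hist1h2bc stood at 162, 154 and 157 FPKM in proximal tubule cells, 116, 345 and 135 in primary tumors, 150.3, 188 and 172 in metastases and 329, 180.1 and 238 in allograft tumors. The groups overlapped, and primary tumor 2, the primary tumor with the most proximal tubule marker RNA, was the highest library. Hist2h2be stood between 1.499 and 2.81 FPKM in all 12 libraries. Neither gene was called in any of the 6 comparisons between groups. Their changes in allograft tumors against proximal tubule cells were 0.61 ± 0.37 and 0.22 ± 0.18 (limma, adjusted p = 0.158 and adjusted p = 0.295), and both directions flipped to -0.81 and -0.66 after rescaling to TPM. Hist1h2bc was the third most abundant histone gene of the sorted cells and held 9.89% of their summed histone FPKM.

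H3 was the class with the largest median change in each tumor group. All 10 tested H3 genes rose in all 3, beside 48.2%, 54.0% and 52.2% of all genes, with medians of 3.77, 6.24 and 7.26. Hist1h3b, at chr13:23752267-23752886 on the plus strand, stood at 10.9, 9.94 and 6.51 FPKM in proximal tubule cells, 704, 66.9 and 49.5 in primary tumors, 852, 1028 and 884 in metastases and 2243, 1218 and 2293 in allograft tumors. Each tumor library lay above all sorted cells, and its changes were 3.76 ± 0.79, 6.53 ± 0.79 and 7.54 ± 0.79 (limma, adjusted p = 0.00284, adjusted p = 5.24e-05 and adjusted p = 2.00e-05). Hist1h3e stood at 16.8, 7.32 and 8.95 FPKM in sorted cells and 2047, 1015 and 1614 in allograft tumors. No H3 gene had a mean above 11.02 FPKM in the sorted cells, and 8 of 11 had a mean under 5. Hist1h3h and Hist1h3i were at 0 in 2 of the 3 sorted libraries and reached 733, 389.6 and 380.0 and 381, 238 and 454 FPKM in allograft tumors.

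H4 genes kept the highest levels in proximal tubule cells. Their median mean there was 41.5 FPKM, beside 2.75 for H3 genes. Hist1h4c, at chr13:23697635-23698454 on the minus strand, stood at 394, 436 and 416 FPKM in sorted cells, 918, 773 and 351 in primary tumors, 1089.6, 1298 and 1185 in metastases and 4816, 2099 and 2238 in allograft tumors. Primary tumor 3 lay below all 3 sorted libraries, and the change of 0.60 ± 0.40 in primary tumors was not called (limma, adjusted p = 0.229), while the changes of 1.51 ± 0.40 and 2.77 ± 0.40 in metastases and allograft tumors were (limma, adjusted p = 0.00656 and adjusted p = 1.44e-04). The metastasis call was lost under TPM, median-of-ratios and quantile scaling. Hist1h4d, the most abundant histone gene over the 12 libraries, stood at 118, 93.7 and 117 FPKM in sorted cells, 1288, 369.7 and 379.5 in primary tumors, 1583, 1861 and 1734 in metastases and 4826, 2173 and 3496 in allograft tumors. The only gene of the Hist4 cluster, Hist4h4, at chr6:136801553-136804415, stood at 62.9, 71.2 and 71.4 FPKM in the sorted cells and rose by 1.45 ± 0.34, 2.39 ± 0.34 and 3.82 ± 0.34 (limma, adjusted p = 0.00505, adjusted p = 1.46e-04 and adjusted p = 9.04e-06). Hist1h4a, Hist1h4c and Hist1h4i were the 3 of 12 H4 genes that did not rise in primary tumors, where 48.2% of all genes were called higher.

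The mixture of classes differed between groups. H4 genes held 59.2, 62.2 and 63.1 percent of the summed histone FPKM in proximal tubule cells, 37.2, 54.3 and 50.6 in primary tumors, 35.8, 36.0 and 36.8 in metastases and 38.2, 36.1 and 31.4 in allograft tumors. H3 genes held 3.34, 2.33 and 2.24 percent, 20.1, 7.98 and 10.1, 20.5, 20.7 and 20.4 and 17.0, 18.0 and 23.0 in the same order. The sum of H4 was 17.7, 26.7 and 28.2 times that of H3 in the sorted cells, 1.86, 6.81 and 5.01 times in primary tumors 1 to 3, 1.74 to 1.81 times in metastases and 1.37 to 2.25 times in allograft tumors. Primary tumors 2 and 3 lay between the sorted cells and the other tumors on this ratio. Hist1h4c, Hist1h4d and Hist1h4h together made up 44.2% of the summed mean histone FPKM of sorted cells, 27.4% in primary tumors, 21.1% in metastases and 19.8% in allograft tumors.

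**Figure D4:**
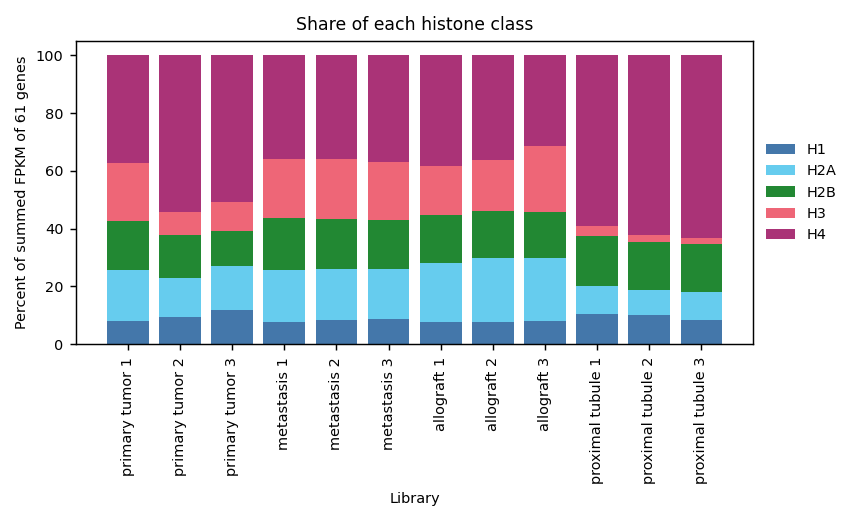
Share of each histone class in the summed FPKM of the 61 genes, in percent, as stacked bars for the 12 libraries. The H4 share is 59 to 63 percent in the proximal tubule cells and 31 to 38 percent in primary tumor 1, the metastases and the allograft tumors, while the H3 share runs the other way.

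Primary tumor 1 stood apart from primary tumors 2 and 3. Primary tumor 1 exceeded primary tumors 2 and 3 in 55 of the 59 tested histone genes, against 36.7% of all genes, and its median ratio to the mean of the other 2 was 6.12. The exceptions were Hist1h2aa, Hist1h2an, Hist1h2bc and Hist2h2be. The order of the 61 genes by level in primary tumor 1 was nearly that of the metastases, with Spearman's rho of 0.992 to 0.996 over the 3 pairs of libraries, beside 0.993 to 0.996 among the metastases themselves. Primary tumors 2 and 3 had a rho of 0.841 to 0.882 with the metastases and 0.778 to 0.883 with the proximal tubule cells. These correlations are across genes, which share libraries and sequence and are not independent replicates. Proximal tubule markers summed to 65.7, 1896 and 425 FPKM in primary tumors 1 to 3, and the part of that tissue in the histone values was not tested.

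Lung metastases were compared with the primary tumors of the same genotype. In this comparison 40 of 59 histone genes rose and none fell, against 11.3% of all genes called higher and 9.59% lower, and the median change was 2.08 beside 0.01 for all genes. All 3 metastases lay above all 3 primary tumors in 52 of the 59 genes, against 21.9% of all genes. By class 4 of 5 H1, 11 of 17 H2A, 9 of 15 H2B, 10 of 10 H3 and 6 of 12 H4 genes rose.

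The largest rises were those of Hist1h2bf, Hist1h3i and Hist1h3d. Hist1h2bf stood at 169, 5.99 and 8.46 FPKM in primary tumors and 214, 225 and 240.5 in metastases, a change of 3.34 ± 1.06 (limma, adjusted p = 0.0489). Hist1h3d stood at 158, 9.31 and 13.4 and 236, 261 and 216 FPKM, a change of 3.05 ± 0.82 (limma, adjusted p = 0.0272), and Hist1h3i at 121, 9.32 and 7.55 and 174, 182 and 191 FPKM, a change of 3.05 ± 0.82 (limma, adjusted p = 0.0272). In all 3 genes the groups did not overlap, and primary tumor 1 lay much closer to the metastases than to primary tumors 2 and 3. The adjusted p of the 40 calls ran from 0.00447 to 0.0489, and the count rested on few libraries. It was 1 without primary tumor 2, 1 without primary tumor 3, 2, 1 and 1 without metastasis 1, 2 and 3, 20 and 21 without proximal tubule libraries 2 and 3, 52 without primary tumor 1, and 1 (Hist1h2ap) when only these 2 groups were fitted. Without primary tumors 2 and 3 together, a setting chosen after seeing the data, it was 0 in limma, with 1 gene at an unadjusted p under 0.05, and the median change was 0.44.

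Allograft tumors held more histone RNA than the primary tumors. Here 54 of 59 genes rose and none fell, against 20.5% of all genes called higher and 21.1% lower, with a median change of 3.26 beside -0.02 for all genes. The 5 not called were Hist1h2bc, Hist1h2bf, Hist1h3d, Hist2h2be and Hist2h4. The largest rises were those of Hist1h2ba, Hist1h3h and Hist3h2ba. Hist1h3h stood at 82.4, 10.2 and 4.29 FPKM in primary tumors and 733, 389.6 and 380.0 in allograft tumors, a change of 4.81 ± 0.91 (limma, adjusted p = 0.00239). Without primary tumors 2 and 3, 28 genes were called higher and Hist1h3d lower in allograft tumors.

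Between allograft tumors and metastases the histone genes had the smallest median change of the 6 comparisons. In this comparison 15 genes rose and 1 fell, against 10.4% of all genes called higher and 13.3% lower, with a median change of 1.10 beside 0.03 for all genes. All 3 allograft tumors lay above all 3 metastases in 43 of 59 genes, against 24.8% of all genes, and below them in Hist1h2bf and Hist1h3d, against 23.6% of all genes. The count of 16 calls was 8, 9 and 9 without metastasis 1, 2 and 3, 8 without allograft tumor 1, 34 without primary tumor 1, 33 without primary tumors 2 and 3, 10 after TPM rescaling, 9 after quantile normalization and 34 when only these 2 groups were fitted.

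The largest rise was that of Hist1h2ba, the testis-specific H2B gene of spermatocytes. It stood at 258, 124 and 42.6 FPKM in allograft tumors 1 to 3, 0.783, 1.57 and 0.666 in metastases and 0.884, 0 and 0 in primary tumors, and was at 0 in each of the 3 sorted libraries. Every allograft tumor thus lay above every other library, and the changes were 5.83 ± 0.53 against metastases and 6.50 ± 0.53 against primary tumors (limma, adjusted p = 4.09e-05 and adjusted p = 4.61e-05). Both calls held under all alternatives run. Hist1h2ba lies at chr13:23933773-23934156 on the minus strand, and 55.9% of its 31-base words were unique. Its neighbour Hist1h2aa, the testis-specific H2A gene, starts 305 bp away and is read in the opposite direction. Hist1h2aa stood at 2.61, 1.21 and 3.80 FPKM in allograft tumors and 0.941, 0.849 and 1.501 in metastases, a change of 0.70 ± 0.33 that was not called (limma, adjusted p = 0.156).

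Most of the stretch between these neighbours is printed because both genes are read away from it. It is given in the direction of Hist1h2ba, as the 250 bases before the RefSeq start of this gene (named H2bc1 there) at chr13:23934157-23934406, minus strand, GRCm38.p6. Capitals mark an octamer (ATTTGCAT), CCAAT boxes (CCAAT) and a TATA box (TATAAA), searched on both strands.
Hist1h2ba: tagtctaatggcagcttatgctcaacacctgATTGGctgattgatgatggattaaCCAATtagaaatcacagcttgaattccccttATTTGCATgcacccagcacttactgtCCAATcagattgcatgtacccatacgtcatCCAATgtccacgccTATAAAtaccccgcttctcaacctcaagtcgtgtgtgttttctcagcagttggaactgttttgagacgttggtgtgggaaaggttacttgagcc
The printed bases held 1 octamer, 4 CCAAT boxes and 1 TATA box, and the bases closest to Hist1h2aa, where its own RefSeq promoter holds a further TATA box, are not shown whole. A match is a description of the letters and not evidence that a factor bound there.

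Other genes of the allograft tumors stood apart as well. Hist1h2an stood at 111, 57.5 and 45.2 FPKM in allograft tumors and 1.45, 5.22 and 0.924 in metastases, a change of 4.44 ± 0.52 (limma, adjusted p = 2.14e-04), with 11.02% unique 31-base words. Hist3h2ba, an H2B gene of the small Hist3 cluster at chr11:58948920-58949533, stood at 142, 90.5 and 215 FPKM and 11.4, 11.6 and 10.6 FPKM, a change of 3.54 ± 0.53 (limma, adjusted p = 9.86e-04). The groups did not overlap for either gene. The other genes of the Hist3 cluster, Hist3h2a and Hist3h2bb-ps, rose too, by 2.23 ± 0.35 and 2.16 ± 0.40 (limma, adjusted p = 0.00127 and adjusted p = 0.00349). Hist3h2a stood at 693, 416 and 691 FPKM in allograft tumors and 120.0, 136 and 115 in metastases. Hist4h4 rose by 1.43 ± 0.34 (limma, adjusted p = 0.0128), a call lost without metastasis 1 (adjusted p = 0.0537), without allograft tumor 1 (adjusted p = 0.0518) and after quantile normalization (adjusted p = 0.0550).

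Hist1h3d was the gene that fell. It stood at 47.2, 31.6 and 32.0 FPKM in allograft tumors and 236, 261 and 216 in metastases, with no overlap, a change of -2.67 ± 0.82 (limma, adjusted p = 0.0384). The call was lost without any 1 of the metastases or allograft tumors (adjusted p = 0.0755 to 0.112), and the direction was kept. Its neighbour Hist1h2bf stood at 184, 57.1 and 93.6 FPKM in allograft tumors and 214, 225 and 240.5 in metastases, and its change of -1.18 ± 1.06 was not called (limma, adjusted p = 0.478). Hist1h2bf lies at chr13:23573736-23574196 and Hist1h3d at chr13:23575763-23577011, and the genes on each side of them in the order along the chromosome, Hist1h2bg and Hist1h4d, had changes of 0.64 and 0.95.

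**Figure D5:**
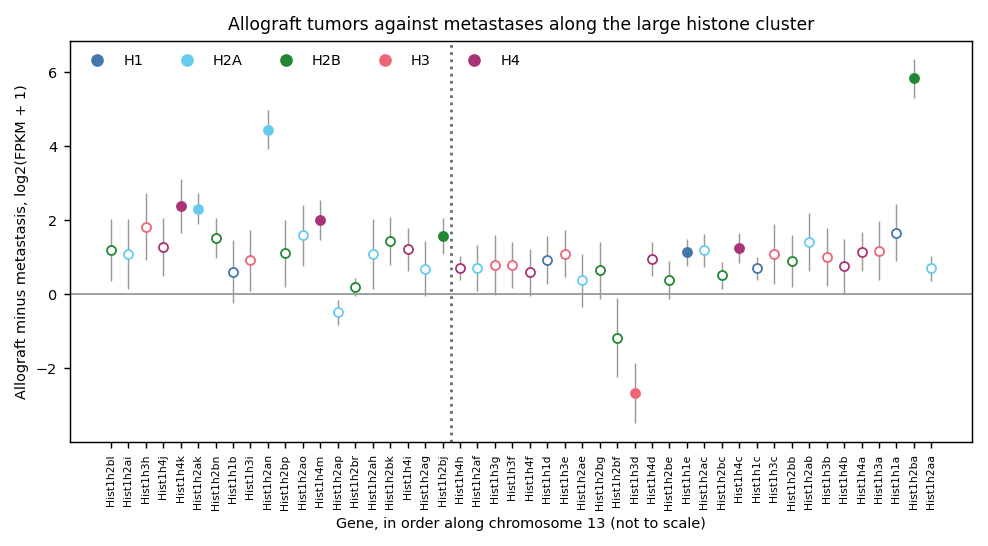
Change between allograft tumors and metastases, in log2(FPKM + 1) ± SE, of the tested genes of chromosome 13 in their order along the chromosome (not to scale), with a dotted line at the gap between the 2 blocks of the cluster; filled circles passed the test. Hist1h2ba and Hist1h2an lie above the rest, and Hist1h2bf and Hist1h3d lie side by side below 0.

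Along chromosome 13 the genes form 2 blocks, with 20 tested genes from 21.72 to 22.04 Mb and 28 from 23.53 to 23.93 Mb; the pseudogene Hist1h2al lies outside, at 51.2 Mb. The median changes of the blocks were 4.41 and 5.02 between metastases and proximal tubule cells. Between allograft tumors and metastases they were 1.24 and 0.85, and the difference between the blocks was not tested.

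Of the histone genes known from testis or germline, Hist1h1t, the testis-specific H1, did not pass the filter. It stood at 2.21, 0.286 and 0 FPKM in proximal tubule cells, 0 in all primary tumors, 0.393, 0.355 and 0.376 in metastases and 0.546, 0.303 and 0.793 in allograft tumors. Hist2h3c2, the other gene below the filter, was above 0 in 1 library, at 3.31 FPKM in allograft tumor 2. Hist1h2aa rose in allograft tumors against proximal tubule cells (limma, adjusted p = 7.78e-04), where it was listed at 0 in all 3 sorted libraries, so no fold is given, and it reached at most 3.80 FPKM. Of these germline genes only Hist1h2ba exceeded 10 FPKM solely in the allograft tumors, while Hist1h1a was above that level in all tumors.

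H2A and H2B genes often lie head to head, sharing the stretch between their starts. There were 11 such pairs, with 172 to 305 bp between the annotated starts. In 9 of the 11 pairs both genes were called higher in allograft tumors than in proximal tubule cells, and the exceptions were the pairs of Hist1h2bc and Hist2h2be. These were the only 2 tested histone genes not called in that comparison, where 52.2% of all genes were called higher. The 9 pairs include the 5 tested genes listed at 0 in every sorted library, among them the pseudogene Hist3h2bb-ps. Hist1h2ac, which shares 250 bp with Hist1h2bc, stood at 5.83, 3.88 and 6.27 FPKM in sorted cells and 343, 198 and 271 in allograft tumors and changed by 5.41 ± 0.44 (limma, adjusted p = 6.07e-06). Hist2h2ac, which shares 238 bp with Hist2h2be, stood at 21.3, 18.9 and 22.6 and 996, 479 and 641 FPKM and changed by 4.95 ± 0.44 (limma, adjusted p = 8.86e-06). In both pairs the H2A gene moved and its H2B partner was not called.

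Of the 61 genes, 53 had a promoter in the RefSeq table (GRCm38.p6), of which the 250 bases before the start were searched for the same 3 motifs on both strands; none of the motifs contains another. The octamer was present in 12 of 53 histone genes, namely 7 of 15 H2A and 5 of 12 H2B genes and no H1, H3 or H4 gene, against 1.81% of 27025 genes. A CCAAT box was present in 44 of 53, among them all 6 H1, all 15 H2A and all 12 H2B genes, 8 of 9 H3 genes and 3 of 11 H4 genes, against 37.5% of all genes. TATAAA was present in 28 of 53, against 14.3%. The searched bases of head-to-head neighbours can overlap, so a single site can count for both genes. The octamer between Hist1h2ba and Hist1h2aa was counted for both in this way. Hist1h4d, the most abundant gene, is shown as an H4 example with a CCAAT box and a TATA box. The 250 bases before its RefSeq start lie at chr13:23581318-23581567, plus strand, GRCm38.p6, with the motifs in capitals.
Hist1h4d: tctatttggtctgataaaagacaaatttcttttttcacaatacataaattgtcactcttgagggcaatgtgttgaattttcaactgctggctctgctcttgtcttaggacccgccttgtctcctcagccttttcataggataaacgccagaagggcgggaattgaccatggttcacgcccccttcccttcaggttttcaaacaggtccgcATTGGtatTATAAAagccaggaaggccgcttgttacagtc

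Genes rose with and without an annotated stem-loop. In metastases against proximal tubule cells, all 19 tested genes with the stem-loop within 100 nt of the transcript's end rose, with a median of 5.56. All 19 with more than 100 nt after the stem-loop rose, with a median of 3.46. Of the 21 in which none was found, 18 rose, with a median of 4.01. In allograft tumors the counts were 19, 19 and 19 in the same order, with medians of 6.37, 4.88 and 5.76. Of all genes, 54.0% and 52.2% were called higher in these 2 comparisons. Most of the 21 had under 30 nt annotated after the stop codon, so they are not known to lack the stem-loop. Among those searched without a match, Hist1h1a, Hist1h2br and Hist2h3b rose in both comparisons, and Hist1h2bc and Hist2h2be in neither. Among the 25 tested genes with at least 50% unique 31-base words, 17, 22 and 23 rose in primary tumors, metastases and allograft tumors against proximal tubule cells, beside 48.2%, 54.0% and 52.2% of all genes, with medians of 1.57, 2.96 and 4.26.

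Other RNAs without poly(A) tails were read in all libraries, which bears on whether the libraries could hold histone mRNA. The 7 such RNAs matched summed to 45466 to 55010.2 FPKM in the sorted cells and 165180.0 to 418677 in the tumors. For each FPKM of these RNAs the sorted cells held 0.0373, 0.0329 and 0.0283 FPKM of histone genes. Primary tumors 1 to 3 held 0.0509, 0.0202 and 0.0177, metastases 0.0548 to 0.0728 and allograft tumors 0.0982 to 0.133. On this ratio primary tumors 2 and 3 lay below every sorted library. The ratio depends on the gene lengths used, which no source used here states and which may differ in the sorted columns. Rmrp, the RNA of RNase MRP, stood at 26121, 27249 and 34041 FPKM in sorted cells and 71903 to 245183 in tumors, and its changes from sorted cells of 1.81 ± 1.17, 2.51 ± 1.17 and 2.75 ± 1.17 were not called (limma, adjusted p = 0.211, adjusted p = 0.0774 and adjusted p = 0.0562). Against proximal tubule cells 5, 6 and 6 of the 7 rose in primary tumors, metastases and allograft tumors, beside 48.2%, 54.0% and 52.2% of all genes, with medians of 3.11, 3.89 and 4.08. In each of the 3 comparisons between tumors 1 of 7 rose, and it was Terc, the RNA template of telomerase. Of all genes, 11.3% were called higher in metastases and 20.5% in allograft tumors against primary tumors, and 10.4% in allograft tumors against metastases. The count of 1 of 7 was near these shares. Terc stood at 0.960, 1.66 and 0.904 FPKM in sorted cells, 18.9, 6.93 and 12.7 in primary tumors, 38.7, 33.4 and 37.9 in metastases and 394, 126 and 189 in allograft tumors, and changed by 2.50 ± 0.41 between allograft tumors and metastases (limma, adjusted p = 0.0017). No source used here states how RNA was selected, so a difference in selection between sorted cells and tumors cannot be told apart from a difference in histone RNA.

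The genes that make histone mRNA had median changes of 0.65, 0.86 and 1.23 against proximal tubule cells, where all genes had 0.59, 0.68 and 0.66. Of 18 genes for histone transcription and 3′ processing, 12 rose and Upf1, an RNA helicase of histone mRNA decay, fell in primary tumors (-0.44 ± 0.15; limma, adjusted p = 0.0307) and in metastases (-0.47 ± 0.15; limma, adjusted p = 0.0179) against proximal tubule cells, and 13 rose in allograft tumors, beside 48.2%, 54.0% and 52.2% of all genes called higher. Between metastases and primary tumors limma called 0 of 18, with 2 at an unadjusted p under 0.05. In allograft tumors 9 rose and Ncbp2, a cap-binding subunit, fell against primary tumors (-0.68 ± 0.24; limma, adjusted p = 0.046), and 6 rose against metastases. Of all genes, 20.5% were called higher and 21.1% lower against primary tumors, and 10.4% higher against metastases. Slbp stood at 18.4, 16.2 and 15.3 FPKM in sorted cells, 33.1, 22.7 and 21.4 in primary tumors, 36.0, 36.8 and 39.3 in metastases and 84.2, 52.6 and 80.7 in allograft tumors. Its change of 0.58 ± 0.21 in primary tumors against sorted cells (limma, adjusted p = 0.04) flipped to -0.48 after TPM rescaling. The allograft tumors lay above all other libraries, with changes of 2.03 ± 0.21 against sorted cells and 0.91 ± 0.21 against metastases (limma, adjusted p = 1.93e-05 and adjusted p = 0.0113), the second lost after TPM rescaling (adjusted p = 0.0954) and without the 50 most abundant genes (adjusted p = 0.0600). Npat, the coactivator of histone genes in S phase, stood at 3.06, 3.26 and 2.78 FPKM in sorted cells and 10.1, 8.09 and 11.68 in allograft tumors, a change of 1.43 ± 0.16 (limma, adjusted p = 3.07e-05) that was 0.23 and not called after TPM rescaling (adjusted p = 0.346). Eri1, an exonuclease that trims histone mRNA ends, changed by 2.42 ± 0.26 between the same groups (limma, adjusted p = 2.35e-05).

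Histone chaperones hand new histones to DNA. Of 19, 9, 16 and 17 rose in primary tumors, metastases and allograft tumors against proximal tubule cells, beside 48.2%, 54.0% and 52.2% of all genes. Against primary tumors 4 rose in metastases and 11 in allograft tumors, beside 11.3% and 20.5% of all genes. In allograft tumors against metastases 5 rose, beside 10.4% of all genes. The share called higher in primary tumors than in proximal tubule cells was near that of all genes. The median changes against proximal tubule cells were 0.46, 0.83 and 1.42, where all genes had 0.59, 0.68 and 0.66. Chaf1b, a subunit of the replication-linked chaperone CAF-1, stood at 0.488, 0.563 and 0.584 FPKM in sorted cells, 9.54, 2.24 and 2.77 in primary tumors, 10.6, 11.5 and 10.8 in metastases and 56.3, 34.9 and 37.4 in allograft tumors. The allograft tumors did not overlap any other group, and their change against metastases was 1.84 ± 0.37 (limma, adjusted p = 0.00564). Asf1b, which delivers H3-H4, rose by 3.09 ± 0.43 in metastases against sorted cells (limma, adjusted p = 1.22e-04), from 0, 0.314 and 0.113 to 8.56, 9.40 and 8.17 FPKM.

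Replacement histone genes mostly give polyadenylated mRNAs, although H2afx can also give an mRNA that ends in the stem-loop. Of 11, 4, 8 and 9 rose in primary tumors, metastases and allograft tumors against proximal tubule cells, beside 48.2%, 54.0% and 52.2% of all genes, with medians of 0.82, 1.51 and 1.51. H2afx, the H2A variant that is phosphorylated at DNA breaks, stood at 4.98, 5.02 and 5.63 FPKM in sorted cells, 32.4, 6.95 and 7.62 in primary tumors, 49.0, 54.3 and 47.9 in metastases and 134, 97.7 and 123 in allograft tumors, and Cenpa, the H3 variant of centromeres, at 1.35, 0.608 and 0.367, 9.97, 1.38 and 1.84, 14.4, 15.9 and 12.8 and 30.3, 24.4 and 30.6. Both rose by more than the other replacement genes in allograft tumors, by 4.25 ± 0.44 and 4.08 ± 0.48 (limma, adjusted p = 1.84e-05 and adjusted p = 3.55e-05). H3f3b, a gene of the replacement histone H3.3, changed by 1.69 ± 0.36 (limma, adjusted p = 0.00159), which was 0.28 and not called after TPM rescaling (adjusted p = 0.582). The clustered genes summed to 3.37, 2.99 and 3.22 times the replacement genes in sorted cells, 11.69, 4.55 and 4.13 times in primary tumors, 12.9, 14.2 and 13.3 times in metastases and 24.3, 17.7 and 23.2 times in allograft tumors. Rescaling the total of a library leaves this ratio as it is. Other gene lengths or another tool in the proximal tubule columns could change it, and this was not tested.

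Of the 26 S phase genes, 17, 24 and 25 rose in primary tumors, metastases and allograft tumors against proximal tubule cells, beside 48.2%, 54.0% and 52.2% of all genes. Their median changes were 1.06, 2.31 and 3.49. In metastases against primary tumors 18 rose, in allograft against primary tumors 25, and in allograft tumors against metastases 12. In the same order 11.3%, 20.5% and 10.4% of all genes were called higher. Mcm3, a subunit of the replicative helicase, stood at 1.22, 1.42 and 1.25 FPKM in sorted cells, 20.3, 4.40 and 5.19 in primary tumors, 23.7, 25.9 and 22.7 in metastases and 74.1, 38.9 and 57.6 in allograft tumors, and Mki67, the proliferation marker, at 1.11, 2.70 and 1.94, 28.7, 3.74 and 6.34, 33.4, 38.0 and 33.5 and 54.5, 40.6 and 55.9. In both genes primary tumor 1 lay closer to the metastases than to primary tumors 2 and 3, as it did for the histone genes. Against proximal tubule cells the metastases changed by 3.45 ± 0.44 for Mcm3 and 3.66 ± 0.54 for Mki67 (limma, adjusted p = 7.18e-05 and adjusted p = 1.72e-04).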

How the data were processed

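FPKM values of 24432 genes in 12 libraries were used as the authors deposited them. The submitters' processing notes name Salmon, bcl2fastq 2.17.1.14 and the builds mm10 and GRCm38; no source used here states the library type or gene lengths. Identifiers were matched to GENCODE M21, and 24189 had a symbol. A gene was kept if 3 or more of the 12 libraries reached 1 FPKM (16313 genes), 1 was added and log2 was taken. All 4 groups entered 1 limma fit (limma 3.58.1, R 4.3.3) with a mean-variance trend, which tested 6 comparisons and adjusted p by Benjamini-Hochberg over all genes of a comparison; the fit was tested on simulated data. Sequence features came from GENCODE M21 transcripts (31-base words, stem-loops) and RefSeq promoters (GRCm38.p6). The histone genes and lists were chosen with earlier results of these data known. One further result of the S phase list is not reported here. Of 20 mRNA processing genes listed 18 matched, and of 13 other RNAs 7. Genes named are the 2 most abundant of each class, the 3 largest called rises and falls of each comparison, germline and non-Hist1 genes, set regulators and the largest called change of each list; not all are printed, and Hist2h2aa2, Hist3h2bb-ps, Hist1h2ac, Hist2h2ac, Upf1, Ncbp2 and the 3 H4 genes not called in primary tumors were named after their values were seen. Alternatives were a pseudocount of 0.1, no filter, TPM, median-of-ratios and quantile scaling, leaving out the 50 most abundant genes, only 2 groups, a replicate block and leaving out each library. Leaving out primary tumors 2 and 3 together was chosen after seeing the data; the lone primary tumor was then assumed to vary like the other groups.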

Additional observations from a re-analysis of the deposited data

How the results depend on the processing

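Of the alternative counts of called histone genes, 107 lay within 1.5 times the count reported and 19 did not. The count for metastases against primary tumors ranged from 1 to 52 over the libraries left out, and was 1 with only these 2 groups and 0 in limma without primary tumors 2 and 3 (1 gene at an unadjusted p under 0.05). Allograft against primary tumors gave 29 without these 2 libraries. Allograft tumors against metastases gave 8 to 34 over the libraries left out, 33 without primary tumors 2 and 3, 34 with only 2 groups, 10 as TPM and 9 after quantile normalization. With the replicate block the 6 counts were 47, 56, 57, 44, 53 and 16, so it changed none by over 1.5 times. Nothing in the labels says whether same-numbered libraries share an animal. None of 18 such pairs correlated above 0.1 (r -0.043 to 0.0977). With so few libraries per group, this check cannot decide whether they were paired. Ratios of summed FPKM to proximal tubule cells became 5.49 (TPM) and 7.53 (median-of-ratios) in metastases and 9.25 and 16.4 in allograft tumors. Over the libraries left out, the ratio to primary tumors ran from 2.09 to 5.23 in metastases and from 4.70 to 11.8 in allograft tumors. Directions that reversed were those of Hist1h2bc (TPM -0.81, median-of-ratios -0.031, without the 50 most abundant genes -0.10) and Hist2h2be (-0.66, -0.21, quantile -0.69, without the 50 genes -0.25) in allograft tumors against proximal tubule cells, H1f0 there (TPM -0.40), Slbp (TPM -0.48, median-of-ratios -0.047), Lsm11 (TPM -0.18, quantile -0.87) and H3f3a (TPM -0.0025) in primary tumors, and Lsm11 in metastases (TPM -0.021, quantile -0.73). The cause was not tested. Low values limit the proximal tubule cells most, where 34 of 61 genes had a mean under 5 FPKM and depth is uncertain.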
